A study of Mus musculus with 4 samples.

Results

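The interleukins and their receptors are described here in the spinal cord of mice with a ligated spinal nerve. Members were taken as all non-control probes of the array whose gene name in the scanner files begins with Il and a digit, leaving out Il34. The rule found 82 genes, read by 104 of the array's 55681 probes: 39 ligands, 41 receptors or receptor chains, the IL-18 binding protein Il18bp and the enzyme Il4i1. RNA came from lumbar cord of 4 male ICR mice, an outbred strain, 8 weeks old, on day 10 after surgery, and each mouse gave 1 array. In 2 mice the L5 spinal nerve had been tied tightly (spinal nerve ligation, SNL, a common model of neuropathic pain), and in 2 mice it had been exposed and not tied (sham). The protocol in the labels names L4 and L5 segments and the source field names L5, and no source used here says which side was collected. All mice had the same anaesthesia and saline perfusion and no genetic change is named, so the comparison asks which transcripts of the lumbar cord differ between ligated and sham-operated mice.

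Interleukins are small secreted proteins by which cells of the immune system, and glia in the nervous system, act on cells that carry the matching receptor. Ligands of the IL-1 family act through paired receptor chains and the adaptor MyD88 to NF-kB, whereas most others act through receptor chains that hold JAK kinases and pass the signal to STAT factors. Microglia and astrocytes are known sources of IL-1 beta and IL-6 in the injured cord, where both are among the most studied signals in models of nerve injury pain.

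Values are log2 signals relative to the 75th percentile of the same array, so a value of one probe can be set against the same probe on another array and not against another probe. Each change is SNL minus sham on the log2 scale with its standard error (SE), 2 mice per group, from limma across 29114 genes with Benjamini-Hochberg adjustment, and a gene was called at an adjusted p under 0.05. All 4 arrays lay on 1 slide, both SNL arrays in its second row and both sham arrays in its first, so that slide row and group cannot be told apart. On the SNL arrays 74.9% and 78.1% of spots stood well above background, on the sham arrays 82.1% and 81.9%, and none was saturated. Median background was 118 and 117 on the SNL arrays and 80.2 and 86.3 on the sham arrays, and probes not above background had median log2 values of -8.86 and -8.91 on the SNL arrays against -9.60 and -9.75 on the sham arrays. Members not above background on any array are therefore given no direction. The neuronal, astrocyte and oligodendrocyte lists averaged between 1.92 and 3.37 log2 units on every array. These markers are shared by other parts of the nervous system and do not single out lumbar cord. Skeletal muscle markers averaged 2.03 on the array of SNL replicate 1 and between -2.83 and -1.63 on the other arrays, and Schwann cell markers averaged -2.11 on the array of sham replicate 2 and between 0.30 and 1.27 on the others. For members named with a change, the value without a mouse is given where leaving that mouse out moved the change by over 1.5 times and the groups did not overlap.

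Of the 82 members, 67 could be tested: 27 ligands, 38 receptors, Il18bp and Il4i1. No member passed the adjusted threshold in limma, against 0.161% of all genes tested that passed as higher in SNL and 0.0103% as lower. At an unadjusted p under 0.05, 15 members (22.4%) were higher in SNL and 7 (10.4%) lower, against 6.67% and 5.48% of all genes. At least 2-fold and under that p, 9 members (13.4%) were higher and 2 lower, against 1.91% and 0.714% of all genes. Both SNL arrays lay above both sham arrays for 28 members (41.8%) and below them for 16 (23.9%), against 24.9% and 20.9% of all genes. The median change over the 67 was 0.14, with a range of -2.23 to 2.22, against 0.03 over all genes. Of the 67, 59 were well above background on all 4 arrays, Il6 entered the test only through the SNL arrays, and Il5, Il17f, Il31 and Il18rap entered only through the sham arrays. The counts therefore describe the members tested and not all members.

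Split by role, among the 27 ligands 5 were higher and 5 lower at an unadjusted p under 0.05 (18.5% each), with a median change of 0.08. Among the 38 receptors 9 were higher (23.7%) and 2 lower (5.26%), with a median of 0.19. Over all genes the shares were 6.67% higher and 5.48% lower, as the plot of shares by threshold shows. The 5 higher ligands include Il6 and the 5 lower ones include Il17f, each of which entered the test only through the group where it read higher, so the ligand shares support nothing by themselves. With all 4 arrays required to be above background, 5 ligands were higher and 3 lower. Without SNL replicate 1, 9 ligands were higher and 2 lower, and without sham replicate 2 the count of lower ligands was 1. Ligands and receptors were not tested against each other.

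**Figure D1:**
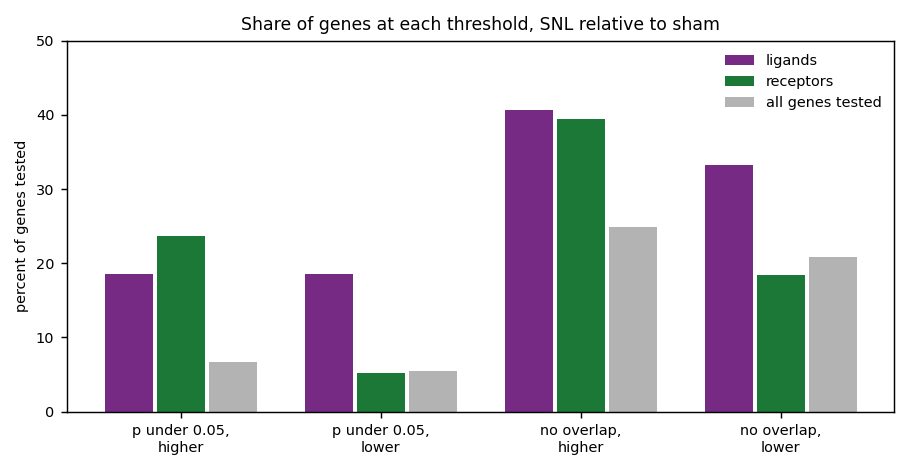
Percent of the 27 ligands, of the 38 receptors and of all 29114 genes tested that were higher or lower in SNL than in sham cord, at an unadjusted p under 0.05 in limma (left pairs of groups) and with the 2 SNL arrays not overlapping the 2 sham arrays (right). Ligands stood at 18.5% in both directions at that p, receptors at 23.7% higher and 5.26% lower, and all genes at 6.67% higher and 5.48% lower.

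The IL-1 family held 3 of the 5 ligands that were higher. Counts by ligand family, here and below, stand beside 6.67% of all genes higher and 5.48% lower at an unadjusted p under 0.05. With so few ligands in a family, a count of 0 is near those shares. Il1f9, Il1a and Il1b, all agonists of the family, were at least 2-fold higher in SNL cord at an unadjusted p under 0.05, and none of the 6 family ligands tested was lower at that p. The start regions of these genes and of Il6 are shown because these are the ligands with the largest increases in signal. Each run is the 250 bases before the annotated start, from RefSeq on GRCm38.p6, read along the gene's strand and ending at the start site, with the matches of searched motifs in capitals. The Il1a region is chr2:129309973-129310222 (minus strand), with a TATA box and an AP-1 match. The Il1b region is chr2:129371140-129371389 (minus strand), with a TATA box. The Il6 region is chr5:30012864-30013113 (plus strand), with an AP-1 match and then an NF-kB consensus match. The Il1f9 region is chr2:24186226-24186475 (plus strand), with a STAT match.
Il1a: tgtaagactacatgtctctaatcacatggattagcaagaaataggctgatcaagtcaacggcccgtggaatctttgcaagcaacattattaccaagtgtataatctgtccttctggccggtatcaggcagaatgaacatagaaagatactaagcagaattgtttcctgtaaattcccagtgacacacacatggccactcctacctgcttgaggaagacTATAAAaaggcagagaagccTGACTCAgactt
Il1b: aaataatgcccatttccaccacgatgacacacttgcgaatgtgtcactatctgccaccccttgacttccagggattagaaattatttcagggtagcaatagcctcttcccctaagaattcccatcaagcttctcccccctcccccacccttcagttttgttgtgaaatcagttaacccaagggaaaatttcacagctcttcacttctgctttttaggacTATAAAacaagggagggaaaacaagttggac
Il6: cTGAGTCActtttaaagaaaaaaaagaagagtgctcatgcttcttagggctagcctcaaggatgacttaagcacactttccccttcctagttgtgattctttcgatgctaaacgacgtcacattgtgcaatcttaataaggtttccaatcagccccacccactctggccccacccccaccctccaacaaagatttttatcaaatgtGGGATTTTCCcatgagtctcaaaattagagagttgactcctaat
Il1f9: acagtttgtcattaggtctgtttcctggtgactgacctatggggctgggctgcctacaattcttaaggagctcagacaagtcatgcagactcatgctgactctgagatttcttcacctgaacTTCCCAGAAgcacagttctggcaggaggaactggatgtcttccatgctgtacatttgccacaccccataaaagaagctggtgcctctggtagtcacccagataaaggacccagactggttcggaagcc

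The motifs searched on both strands were AP-1 as TGANTCA, STAT as TTCNNNGAA, PU.1 as GAGGAAGT, the IRF motif by its name, the TATA box as TATAAA and the NF-kB consensus likewise by name. Promoters were at hand for 66 of the 82 members, 81 in all because some genes have several starts. AP-1 matched 14 of these 81 (17.28%), against 6.75% of 32841 mouse promoters. STAT matched 9.88% against 7.02%, the NF-kB consensus 6.17% against 3.9%, and the TATA box 16.05% against 12.37%. PU.1 (2.47% against 2.44%) and IRF (2.47% against 2.98%) matched about as often as in all promoters. A match is a description of these letters and no measure of binding.

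Il1f9, now named IL-36 gamma, is known as an agonist made by epithelia and myeloid cells. Its signal was -0.87 and -0.79 in SNL mice, against -2.73 and -3.38 in sham mice. Both SNL values lay above both sham values, by more than the spread within either group. The change was 2.22 ± 0.26 (4.67-fold, SE, n = 2 per group, adjusted p = 0.135 in limma), the largest increase among the probes that represent members. The receptor chain of IL-36 ligands, Il1rl2, was at -5.72 and -5.17 in SNL mice and -5.62 and -5.54 in sham mice, and these groups overlapped.

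Il1a, which encodes IL-1 alpha, read -3.42 and -3.32 in SNL mice, against -4.60 and -5.08 in sham mice. Il1b, which encodes IL-1 beta, read -3.25 and -3.31 in SNL mice, against -4.39 and -4.87 in sham mice. In both genes the SNL mice lay close together and above both sham mice. The change was 1.48 ± 0.20 for Il1a (2.78-fold, adjusted p = 0.160 in limma) and 1.35 ± 0.20 for Il1b (2.55-fold, adjusted p = 0.170). Il1b is printed in 10 spots per array, whose SD within an array was 0.04 to 0.12, a technical spread that says nothing of variation between mice.

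Il1rn encodes the natural antagonist of the IL-1 receptor. It read -5.14 and -5.04 in SNL mice, against -5.91 and -5.42 in sham mice, a change of 0.57 ± 0.20 (adjusted p = 0.422 in limma). The SNL values were above both sham values, and without sham replicate 1 the change was 0.33. Il33, an alarmin of astrocytes and oligodendrocytes, read 0.77 and 0.49 in SNL mice, against 1.10 and 0.88 in sham mice. Both SNL values were the lower ones, with a change of -0.36 ± 0.16 (adjusted p = 0.494), which was -0.22 without SNL replicate 2. Il18, the other ligand processed by caspase-1, read 0.20 and 0.27 in SNL mice, against 0.27 and 0.58 in sham mice, a change of -0.19 ± 0.15 that was -0.04 without sham replicate 2 and -0.35 without sham replicate 1. Il18bp, the secreted protein that binds and blocks IL-18, read -3.19 and -3.14 in SNL mice, against -3.52 and -3.67 in sham mice. Its change of 0.43 ± 0.10 had an adjusted p of 0.296 in limma, with both SNL values above both sham values. The other family ligands, Il1f5, Il1f6, Il1f8 and Il1f10, were not well above background on any array.

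Il6, the pleiotropic cytokine that acts through the shared chain gp130, was well above background on both SNL arrays and on neither sham array. Its signal was -5.89 and -6.48 in SNL mice, against -7.95 and -8.27 in sham mice, which are bounds. SNL cord read 3.37-fold higher when each sham value was set to the higher of its own signal and a floor (fit: adjusted p = 0.161 in limma). The floor was the lowest signal of any probe well above background on that array. It is no strict limit of detection, since Il9 was not well above background on the sham arrays at -7.64 and -7.80. The 3.37-fold is for the processed signal only, and with normexp background correction the change of Il6 was smaller, 1.07 on the log2 scale. Among the other 5 ligands tested of the IL-6 and IL-12 group, Il11, a further gp130 ligand, was the only one under an unadjusted p of 0.05. It read -3.70 and -3.74 in SNL mice, against -3.40 and -3.05 in sham mice, a change of -0.49 ± 0.16 (adjusted p = 0.386) that was -0.31 without sham replicate 2, and was named after its values were seen.

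Il16 is a chemoattractant of CD4-bearing cells that is cut from a larger precursor. It read -0.56 and -0.87 in SNL mice, against -1.40 and -2.28 in sham mice. The SNL values were above both sham values, but the sham mice differed by nearly as much as the groups. The change was 1.12 ± 0.36 (adjusted p = 0.382 in limma), and 0.68 without sham replicate 2.

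Of the 5 ligands of the IL-10 family tested, Il19 and Il20 were lower at an unadjusted p under 0.05 and none was higher. Il19 read -5.55 and -5.40 in SNL mice, against -3.96 and -4.26 in sham mice. Both SNL values were below both sham values, and the change was -1.36 ± 0.15 (2.57-fold lower, adjusted p = 0.127 in limma). A second Il19 probe 211 bases away read -7.43 and -6.97 in SNL mice, against -5.65 and -6.01 in sham mice, a change of -1.37 ± 0.23. That probe was not well above background on the array of SNL replicate 1, so its SNL side is partly a bound. Il20, named after its values were seen, was well above background on 1 of the 2 SNL arrays and read -7.11 and -6.46 in SNL mice, against -5.96 and -6.07 in sham mice. The third of this subgroup on the array, Il24, read -3.97 and -3.19 in SNL mice, against -4.31 and -4.07 in sham mice. That is the opposite direction, at an unadjusted p of 0.131 in limma. A second Il24 probe was not well above background on any array, and a second Il20 probe only on that of sham replicate 2. Il10 itself, the main anti-inflammatory cytokine of the family, is printed in 10 spots per array and was not well above background on any of the 4 arrays.

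Ligands of the common gamma chain are made mainly by lymphocytes and stromal cells, and of the 4 tested 1 was lower at that p and none higher. Il21, a product of helper T cells, read -3.71 and -3.56 in SNL mice, against -3.21 and -2.93 in sham mice. Both SNL values were lower, with a change of -0.56 ± 0.15 (adjusted p = 0.317 in limma), which was -0.32 with normexp correction. Il4, also in 10 spots per array, read -5.67 and -4.54 in SNL mice, against -5.41 and -5.17 in sham mice, and these groups overlapped. Il15 read -4.66 and -5.20 in SNL mice, against -4.56 and -4.94 in sham mice, and overlapped too. Il2 was not well above background on any array. Nor was Il13, which is listed with this group although its receptor is Il13ra1 with Il4ra and not the common gamma chain. Il9 was well above background on 1 SNL array alone and was not tested.

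Of the 4 ligands of the IL-17 family tested, none was higher and 1, Il17f, was lower at an unadjusted p under 0.05 in limma. In both SNL mice Il17b, named after its values were seen, read higher than in either sham mouse. It read -2.86 and -2.26 in SNL mice, against -3.14 and -3.24 in sham mice. The change was 0.63 ± 0.24 (adjusted p = 0.448 in limma), and 0.33 without SNL replicate 2. Il17a, the product of Th17 and gamma delta T cells, and Il17c were not well above background on any array. Il17f was not well above background on the SNL arrays, with -8.41 and -8.03 there, against -7.65 and -7.45 in sham mice. The SNL side is a bound, no fold can be given, and with normexp correction the fitted change of -0.67 became 0.06. Outside this family, Il31 and Il5 were likewise not well above background on the SNL arrays. Il31 read -7.71 and -7.30 in SNL mice, against -7.13 and -7.10 in sham mice, and Il5 read -6.97 and -7.17 in SNL mice, against -7.09 and -7.29 in sham mice. Il3, a growth factor of mast cells and basophils, had its single spot flagged as an outlier on both sham arrays, so its -2.72 and -2.03 in SNL mice have no counterpart and it was not tested. Il12a, the remaining ligand with no array above background, encodes the smaller subunit of IL-12.

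**Figure D2:**
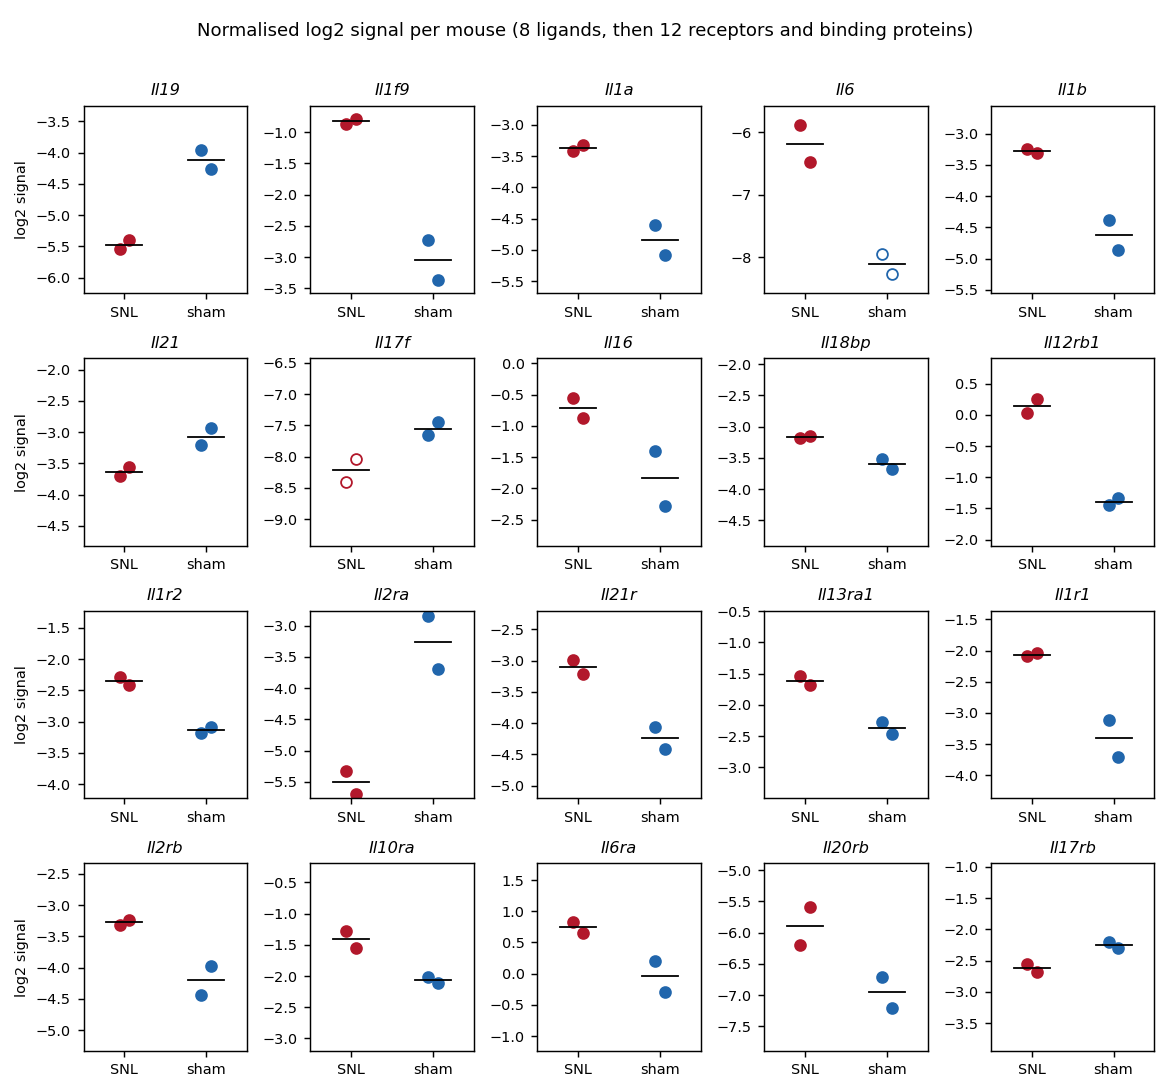
Log2 signal relative to the array's 75th percentile in each of the 2 SNL mice (red, left) and 2 sham mice (blue, right) for the 8 ligands and 12 receptors or binding proteins with the smallest unadjusted p, with a line at each group's mean and open points where neither array of the group was well above background. All panels span the same range of log2 units. The panels were chosen by p, which favours groups that do not overlap, as was so for 24.9% (higher) and 20.9% (lower) of all genes. SNL lies below sham for Il19, Il21, Il2ra and Il17rb, and Il17f has no settled direction, since its SNL points are not above background and normexp correction turned its change to 0.06.

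Of the 8 receptors of the IL-1 family tested, 2 were higher at an unadjusted p under 0.05 and none lower, and these 2 bind IL-1 directly. Counts by receptor family are to be read against the 6.67% of all genes that were higher and the 5.48% that were lower at that p, and in families this small a count of 0 lower is near that share. Il1r1, the signalling receptor, read -2.09 and -2.03 in SNL mice, against -3.12 and -3.70 in sham mice. Il1r2, a decoy receptor that binds IL-1 without signalling, read -2.28 and -2.41 in SNL mice, against -3.18 and -3.08 in sham mice. The groups did not overlap for either gene, and the changes were 1.34 ± 0.23 for Il1r1 (2.54-fold, adjusted p = 0.202 in limma) and 0.78 ± 0.11 for Il1r2 (1.72-fold, adjusted p = 0.160). Il1rap, the accessory chain that Il1r1 needs to signal, read -2.23 and -2.24 in SNL mice, against -1.74 and -2.03 in sham mice. Its SNL values were the lower ones, with a change of -0.36 ± 0.14 (adjusted p = 0.449), which was -0.21 without sham replicate 1. The IL-33 receptor Il1rl1 read -5.92 and -5.20 in SNL mice, against -5.99 and -5.51 in sham mice, with overlap. The IL-18 receptor was at the limit of the array: Il18r1 was well above background on 1 sham array, and Il18rap, at -7.40 and -7.30 in SNL mice and -7.39 and -7.05 in sham mice, on the sham arrays only.

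Of the 7 receptor chains tested of the IL-6 and IL-12 group, 2 were higher at an unadjusted p under 0.05, Il12rb1 and Il6ra, and none was lower. Il12rb1 encodes the chain shared by the receptors for IL-12 and IL-23. It read 0.02 and 0.25 in SNL mice, against -1.44 and -1.33 in sham mice. The gap between groups was several times the spread within them, and the change was 1.52 ± 0.13 (2.88-fold, adjusted p = 0.0890 in limma), the smallest p among the probes that represent members. Normexp correction, no filter on dim probes and a variance trend each brought it under 0.05. With no filter and with the trend the change itself stayed at 1.52. Without the filter, probes at background, which read higher on the SNL arrays, also entered the fit. A second Il12rb1 probe about 2 kilobases upstream gave a smaller change of 0.68 ± 0.28, with -5.29 and -4.59 in SNL mice, against -5.56 and -5.67 in sham mice. Its partner for IL-12, Il12rb2, read -2.87 and -2.67 in SNL mice, against -2.69 and -2.32 in sham mice, with overlap. Il6ra, the binding chain for IL-6, read 0.83 and 0.66 in SNL mice, against 0.21 and -0.29 in sham mice. Both SNL values were above both sham values, with a change of 0.79 ± 0.21 (1.72-fold, adjusted p = 0.332). Il6st, which encodes gp130, read 0.82 and 0.90 in SNL mice, against 0.97 and 0.83 in sham mice, with a change of -0.04 ± 0.11 and overlapping groups. Il23r, the other chain of the IL-23 receptor, was not well above background on any array.

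Of the 10 chains tested that serve receptors of gamma-chain cytokines or of IL-13, 3 were higher and 1 lower at an unadjusted p under 0.05. Il2ra, the alpha chain of the high-affinity IL-2 receptor, had the most negative change of the members tested. It read -5.32 and -5.69 in SNL mice, against -2.84 and -3.70 in sham mice, with no overlap. The change was -2.23 ± 0.36 (4.70-fold lower, adjusted p = 0.184 in limma). Il2rb, the beta chain shared by the IL-2 and IL-15 receptors, read -3.31 and -3.23 in SNL mice, against -4.43 and -3.98 in sham mice. Here the SNL values were higher, with a change of 0.93 ± 0.19 (1.91-fold, adjusted p = 0.251). Il2rg, the common gamma chain itself, read -3.88 and -2.91 in SNL mice, against -3.60 and -4.57 in sham mice, so the groups overlapped. Il15ra, the alpha chain for IL-15, read 2.47 and 2.49 in SNL mice, against 2.42 and 2.55 in sham mice, a change of -0.01 ± 0.10.

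Il21r, the receptor for IL-21, read -2.99 and -3.22 in SNL mice, against -4.06 and -4.42 in sham mice, a change of 1.13 ± 0.18 (2.19-fold, adjusted p = 0.185 in limma). Its direction was opposite to that of its ligand Il21. Il13ra1, which pairs with Il4ra to bind IL-4 and IL-13, read -1.53 and -1.69 in SNL mice, against -2.27 and -2.46 in sham mice. The SNL values were above both sham values, with a change of 0.76 ± 0.13 (1.69-fold, adjusted p = 0.191). Il4ra was represented by a probe that read -2.94 and -2.94 in SNL mice, against -3.47 and -3.06 in sham mice, a change of 0.33 ± 0.17 (adjusted p = 0.554). The change was 0.12 without sham replicate 1 and 0.53 without sham replicate 2.

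A second Il4ra probe gave another picture, seen only after the values were examined. It lies about 10 kilobases downstream of the first (mm9, chr7:132722922-132722981, against chr7:132712550-132712609, both on the plus strand) and its place in the transcript was not annotated here. It read -2.26 and -2.12 in SNL mice, against -4.79 and -5.33 in sham mice, with no overlap and more than 2 log2 units between the groups. In a limma fit of 44313 single probes its change was 2.87 ± 0.23 (7.31-fold, adjusted p = 0.0840), and the mean of both probes changed by 1.60. Of the 13 genes with several probes tested, Il4ra and Il12rb1 were the 2 whose probes differed most, as the plot of changes per probe shows. Both Il19 probes gave about the same change, although 1 of them was not well above background on the array of SNL replicate 1.

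**Figure D3:**
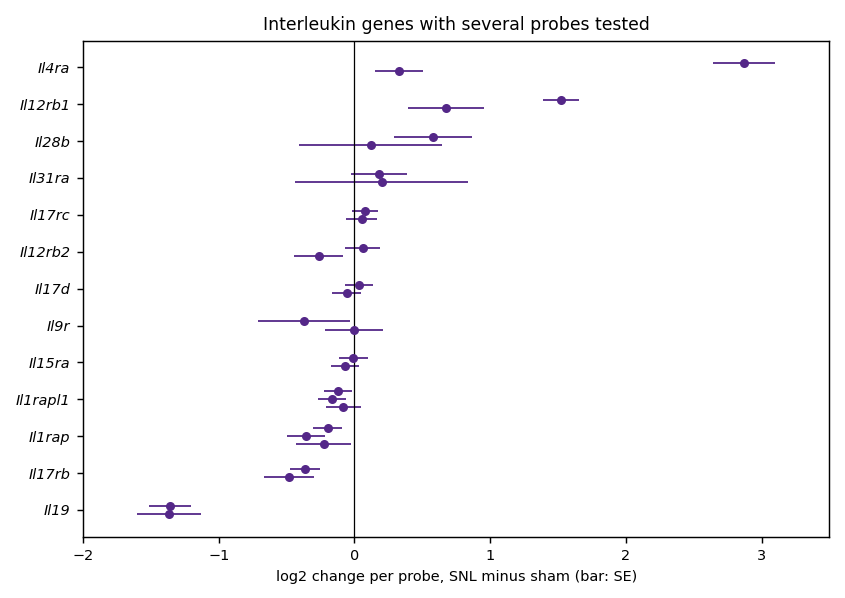
Log2 change of each probe, SNL minus sham, with its SE (2 mice per group), for the 13 interleukin genes that had 2 or 3 probes past the filter. The Il4ra probes lie at 0.33 and 2.87 and the Il12rb1 probes at 0.68 and 1.52, whereas the Il19 probes both lie near -1.36. Of the Il19 probes, 1 was not well above background on the array of SNL replicate 1.

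Of the 6 chains tested of the IL-10 receptor group, 2 were higher at an unadjusted p under 0.05 and none lower, and Il22ra1 was not well above background on any array. The ligand-binding chain Il10ra read -1.28 and -1.55 in SNL mice, against -2.02 and -2.12 in sham mice. Both SNL values were higher, with a change of 0.66 ± 0.14 (1.58-fold, adjusted p = 0.255 in limma), although Il10 was not above background. The shared chain Il10rb read -0.93 and -1.13 in SNL mice, against -1.20 and -1.40 in sham mice, a change of 0.27 ± 0.14 (adjusted p = 0.536), which was 0.17 without SNL replicate 1 and 0.17 without sham replicate 2. Il20rb, a chain of the receptors for IL-19, IL-20 and IL-24, read -6.20 and -5.58 in SNL mice, against -6.72 and -7.20 in sham mice. Its change was 1.07 ± 0.30 (2.10-fold, adjusted p = 0.343 in limma), the opposite direction to Il19. A second Il20rb probe was not well above background on any array. Among the 5 IL-17 receptor chains 1 was lower at that p and none higher. It was Il17rb, which binds IL-25 and read -2.55 and -2.68 in SNL mice, against -2.20 and -2.30 in sham mice (-0.36 ± 0.11, adjusted p = 0.355). Il17ra, the chain shared by the family, read -2.42 and -2.25 in SNL mice, against -2.45 and -2.73 in sham mice, a change of 0.26 ± 0.15 (adjusted p = 0.584). The change was 0.12 without sham replicate 2, 0.40 without sham replicate 1 and 0.17 without SNL replicate 2.

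**Figure D4:**
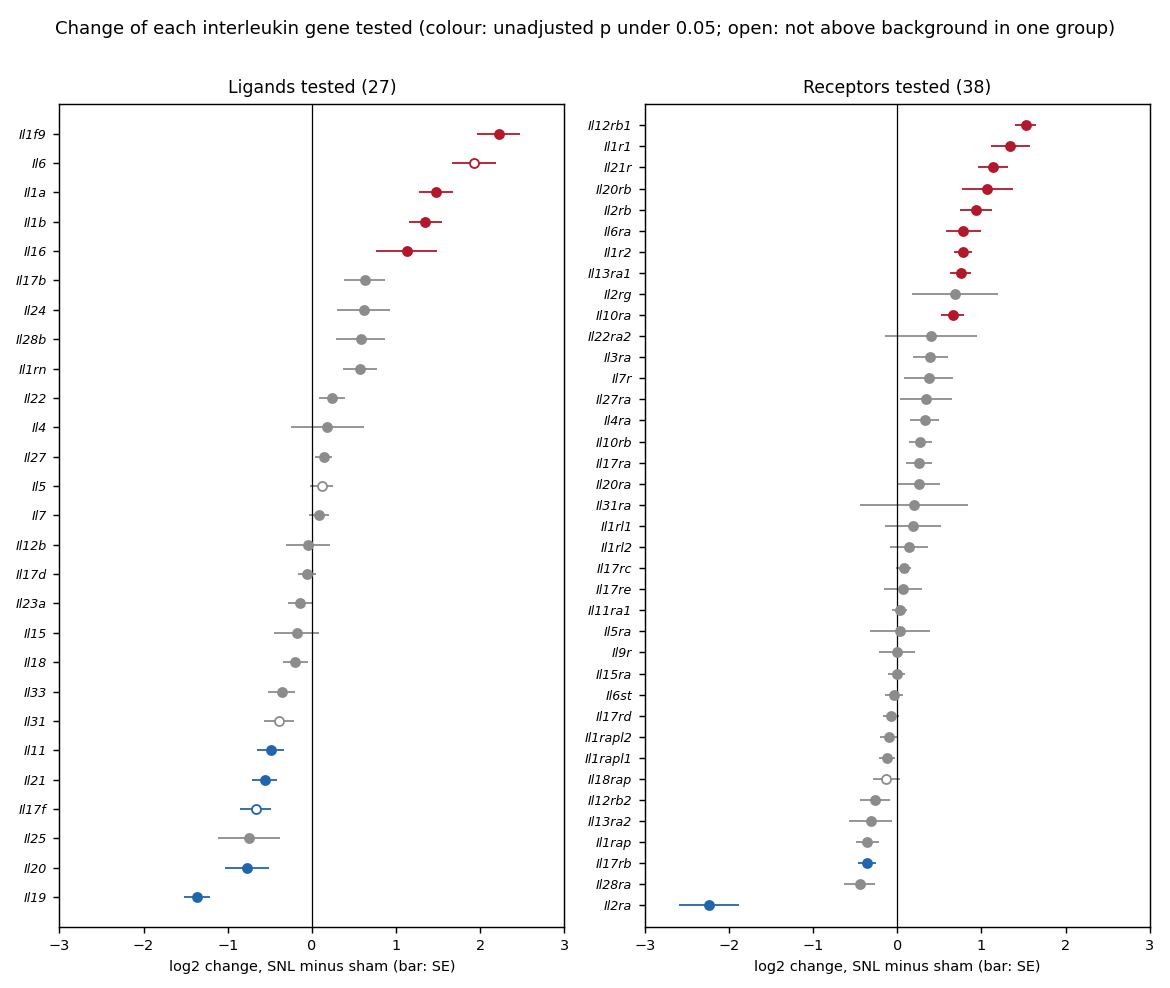
Log2 change, SNL minus sham, with its SE (2 mice per group) for the 27 ligands (left) and 38 receptors (right) tested, ordered by change. Red and blue points had an unadjusted p under 0.05 in limma and open points were not well above background on either array of one group. Changes run from -1.36 for Il19 to 2.22 for Il1f9 among ligands and from -2.23 for Il2ra to 1.52 for Il12rb1 among receptors.

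Genes that act downstream of the receptors were read from lists of pathway members, and none of them passed the adjusted threshold in limma. At an unadjusted p under 0.05, 6.67% of all genes were higher and 5.48% lower, and the counts that follow stand beside these shares. Of 12 feedback inhibitors tested, 2 were higher at an unadjusted p under 0.05 and none lower. Socs3, the STAT3-induced brake on gp130 receptors, read 0.38 and 0.56 in SNL mice, against -1.36 and -1.67 in sham mice, a change of 1.99 ± 0.16 (3.96-fold, adjusted p = 0.0876). Ptpn6, a phosphatase of blood-derived cells and microglia, differed by 0.78 ± 0.10 (adjusted p = 0.157). Of 11 JAK kinases and STAT factors, 2 were higher (Stat2 by 0.37 ± 0.09 and Jak3 by 0.38 ± 0.12) and none lower. Of 10 genes of the inflammasome and IL-1 maturation, 4 were higher and none lower, including the adaptor Pycard (0.89 ± 0.18, adjusted p = 0.251) and the channel Panx1 (0.39 ± 0.11, adjusted p = 0.335). Of 15 adaptors, kinases and brakes of the IL-1 and IL-18 pathway, 2 were higher and none lower. Both are NF-kB targets that restrain it, Nfkbia (0.68 ± 0.09, adjusted p = 0.163) and Tnfaip3 (0.42 ± 0.12, adjusted p = 0.341). Of 12 partner genes without an interleukin name (ligands, receptor chains, adaptors and sheddases), 4 were higher and none lower, including the oncostatin M receptor chain Osmr (0.77 ± 0.18, adjusted p = 0.279) and the IL-17 receptor adaptor Traf3ip2 (0.36 ± 0.11, adjusted p = 0.356). The medians of these lists were 0.07, 0.24, 0.37, 0.08 and 0.19 in that order, against 0.03 over all genes.

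Markers of the cell types that cord tissue could hold are given beside these results. Of 16 microglial markers 12 were higher at an unadjusted p under 0.05 (6.67% of all genes) and none lower, with list means of 1.76 and 1.57 in SNL mice, against 0.87 and 0.91 in sham mice, and a median change of 0.73. Of 15 T and NK cell markers tested 5 were higher and none lower, with list means of -4.83 and -4.94 in SNL mice, against -5.37 and -5.70 in sham mice. By smallest p these were led by Ms4a4b (1.37 ± 0.11, adjusted p = 0.0876 in limma) and Cd3e (0.87 ± 0.17, adjusted p = 0.227). The groups overlapped for Cd3d (-0.46), Cd3g (0.10), Lck (0.07), Cd4 (0.16), Ncr1 (-0.21), Klrb1c (0.91) and Cd247 (0.04). Gzmb, Trac and Trbc2 could not be tested. Cd8b1, 1 of the 5 higher, was well above background on the SNL arrays only. It thus entered the test through the group where it read higher. Neutrophil markers had a median change of -0.64, with 0 of 9 under that p in either direction, and B cell markers -0.11, with 0 of 5. Of 7 markers of monocytes and border macrophages 1 was higher and none lower, and of 5 markers of mast cells and basophils 1 was higher and 1 lower. The higher of these, Ms4a2, likewise entered the test only through the SNL arrays, so that count supports nothing by itself. Astrocyte markers had a median change of 0.03, with 0 of 8 under that p. In whole cord, fewer cells of a type and less RNA per cell cannot be told apart, and the part of these cell markers in the interleukin results was not tested.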

How the data were processed

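Per the labels' protocols, RNA of each of 4 mice was Cy3-labelled for 1-colour Agilent arrays. The authors deposited 1 scanner file per array with spot intensity values, background-corrected by Agilent Feature Extraction 10.7.3.1 per the file headers (10.7.1.1 per the submitters' processing notes), and a series table of log2 values, which was used as an alternative only. Probe positions refer to mm9 per the file headers. Here, log2(processed signal) was scaled by subtracting the 75th percentile of the 59305 non-control spots of an array, outlier spots were left out, and spots of a probe were averaged. Of the 104 member probes, 97 were named through an accession and 7 through a symbol in a RefSeq gene table, where Il28b is Ifnl3 and Il28ra is Ifnlr1.

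To be tested, a probe had to be well above background on 2 or more of the 4 arrays, and the brightest probe represented its gene. The comparison of SNL with sham used limma 3.58.1 (R 4.3.3), whose fit had 2 residual and 1.66 prior degrees of freedom, and the code was checked on simulated data. With 2 mice against 2 an exact permutation test reaches p = 0.333 at best and was not used. Precision is limited by the number of arrays, with a median SE of 0.13. Members, lists and tests were chosen with earlier results of these data known. Named members are the 8 ligands and 12 receptors or binding proteins with the smallest p, genes long studied in nerve injury, and those above background in 1 group only. For other lists the 2 genes with the smallest p were named where they help. The series table matched the scanner values at a correlation that rounds to 1, as log2 values shifted by 0.122 to 0.132 and not centred per gene, with column medians of -3.48 and -3.34 (SNL) and -3.50 and -3.56 (sham). Over which spots its percentile was taken stays unknown. Alternatives were normexp and quantile values, the deposited log2 table, filters, probe averaging, a variance trend, blocks and leaving out each mouse.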

Additional observations from a re-analysis of the deposited data

How the results depend on the processing

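Of 463 values of the interleukin genes chosen by the naming rule above, 443 kept direction and side of the threshold under the alternatives. A further 6 passed it in the same direction and 14 changed sign. The variance trend, the replicate block and the crossed pairing leave each change as it is, so direction could not move there. No interleukin gene was called in the main fit, and either pairing called no gene at all. Keeping the side of the threshold therefore says little there, and as little with a mouse left out, where a group is left with a single array. Members outside that rule are not counted, and some of them, such as Il7 and Il12b, changed sign with a mouse left out. Passing were Il12rb1 with normexp correction (1.71, adjusted p = 0.0359 in limma), with no filter (1.52, adjusted p = 0.0447) and with a variance trend (1.52, adjusted p = 0.00452), Il1f9 (2.22, adjusted p = 0.0116) and Il2ra (-2.23, adjusted p = 0.0387) with the trend, and Il19 with no filter (-1.36, adjusted p = 0.0489). Over all alternatives adjusted p ran from 0.00452 to 0.538 for Il12rb1, 0.0116 to 0.496 for Il1f9, 0.0387 to 0.519 for Il2ra and 0.0489 to 0.524 for Il19. Sign changes with normexp were Il17f 0.055, Il31 0.0737, Il15 0.0329, Il18rap 0.0602 and Il15ra 0.0864. With a mouse left out, signs also changed within -0.4555 to 0.0923 for Il15, -0.3759 to 0.747 for Il4, -0.3026 to 0.0409 for Il18rap, -0.1728 to 0.5461 for Il1rl1, -0.1145 to 0.0255 for Il6st and -0.069 to 0.0552 for Il15ra. The cause was not tested.

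Interleukin genes past the adjusted threshold numbered 0, but 1 with normexp, 5 with no filter and 3 with the trend. With no filter, genes not above background enter the fit too. Probes of that kind had medians of -8.86 and -8.91 on the SNL arrays, against -9.60 and -9.75 on the sham arrays. Counts with no filter therefore settle no direction for such genes. Ligands higher at unadjusted p under 0.05 numbered 5, but 10 with no filter and 4 to 9 when a mouse was left out. Ligands lower numbered 5, but 3 with normexp, with all 4 arrays required, with the trend, with the replicate block and with the crossed pairing, and 1 to 6 when a mouse was left out. Receptors lower numbered 2, but 5 with normexp, 1 with the trend, 1 with the replicate block, 1 with the crossed pairing and 1 to 3 when a mouse was left out. Over all genes, 47 higher and 3 lower calls became 118 and 14 with normexp, 11 and 0 with quantile normalization, 1143 and 88 with no filter, 436 and 123 with the trend, 0 and 0 with either pairing, 0 to 0 when a mouse was left out, and 5 lower calls with all 4 arrays required.

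Samples with the same replicate number lay in the same slide column, so the replicate block is also a block by column. Their deviations from the group means were correlated at -0.03 over the genes tested. No pairing by these numbers was seen in that correlation, which does not exclude one for single genes. The crossed pairing was chosen after seeing the data. With the replicate block Il12rb1 kept 1.52 at adjusted p = 0.238 in limma. A slide or scan block was not run, as there was 1 slide and 1 scan. Signal near background limits Il6, Il17f, Il5, Il31, Il18rap, Il20, Il12b and Il22ra2, and 12 genes had no array above background.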

Other observations

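Several interleukin genes lie in clusters on their chromosomes. On chromosome 2 the array's probes (mm9) place Il1f8, Il1f9, Il1f6, Il1f5, Il1f10 and Il1rn in a run. Of these, only Il1f9 and Il1rn were above background, both higher in the 2 SNL mice than in the 2 sham mice (2.22 and 0.57, the second 0.33 without sham replicate 1). On chromosome 1 Il1r2 and Il1r1 (0.78 and 1.34) are followed by Il1rl2 and Il1rl1 (0.14 and 0.19), whose groups overlapped. Also on chromosome 1, Il24 (0.61) lies beside Il20 (-0.77) and Il19 (-1.36), with Il10 not above background. The Il24 change was 0.22 without SNL replicate 2 and 1.01 without SNL replicate 1, and that of Il20 was -0.44 without SNL replicate 1. On chromosome 7, Il21r (1.13) follows Il4ra (0.33 and 2.87 by its 2 probes, the first 0.12 without sham replicate 1). These values describe neighbours and were not tested as groups.

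Some further ligands were measured together with their receptor chains. For IL-25, Il25 read -1.58 and -0.64 in SNL mice, against -0.25 and -0.48 in sham mice. Its change was -0.75 ± 0.37 (unadjusted p = 0.120 in limma), which was -0.28 without SNL replicate 1 and -1.22 without SNL replicate 2. The IL-25 receptor chain Il17rb was lower in both SNL mice. Another ligand of the IL-17 family, Il17b, went the other way, with a change of 0.63 that was 0.33 without SNL replicate 2. For IL-11, Il11 was lower in both SNL mice while Il11ra1 read 1.88 and 1.88 in SNL mice, against 1.85 and 1.85 in sham mice. Il25, Il17b and Il11ra1 were chosen after their values were seen.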
